A study of Homo sapiens with 12 samples.

Results

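The comparison set the HORMAD1 line against the CT83 line of HMLE cells, 2 lines that each carry 1 transgene. Its members were the 6 libraries labelled HMLE HORMAD1 and HMLE CT83, 3 per line, out of 12 libraries in the series. HMLE is an established human mammary epithelial line, immortalised by telomerase and the SV40 early region. Per the labels, 4 HMLE-derived lines were made to overexpress a control construct, CT83 (genotype OE_CT83), HORMAD1 (genotype OE_HORMAD1) or both genes (the double line), all lines went through puromycin selection, and no other treatment was given. The control and double lines, with 3 libraries each, shared the estimate of spread and are given as reference levels. Messenger RNA with poly(A) tails was sequenced. The series' design text asked what each transgene did in these cells and whether the pair cooperated, and the direct contrast asks where the transcriptomes of the single-transgene lines differed.

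The sources used here give neither the vector nor the promoter of the transgenes, nor whether a line was a clone or a pool. Each construct was represented by 1 line, so an effect of a transgene and a difference between lines cannot be told apart. The labels do not say whether replicates were separate cultures. The p-values therefore take in no more than the library-to-library spread, which may be technical.

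HORMAD1 encodes a HORMA-domain protein that sits on the axis of meiotic chromosomes, where it promotes double-strand break formation and homologue pairing until the ATPase TRIP13 removes it. CT83, also called KK-LC-1, is an X-linked cancer/testis gene, silent in most adult tissues apart from the germ line and active in some carcinomas, including breast cancers. Mammary epithelium has a luminal layer, marked by KRT8 and KRT18, and a basal layer, marked by KRT5, KRT14 and TP63, and HMLE cells express genes of both. NF-kB is a family of transcription factors held in the cytoplasm by IkB proteins. On release they switch on chemokines, cytokines, survival genes and their own inhibitors.

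The gene lists below include one of NF-kB and inflammatory genes, with 39 members. Promoters of 4 of its members that passed the test once 3 libraries were left out are shown here, chosen because their values are described below and their windows hold a match to the NF-kB consensus. Of the 3 other members that passed there, IL32 also had a match and PTGS2 and TRAF1 had none. Each is the RefSeq promoter of GRCh38.p14, from 250 bases before to 50 bases after the transcription start, written 5′ to 3′ on the gene's strand, with matches to GGNNTTTCC (N for any base, either strand) in capitals. They lie at chr4:73740319-73740618 on the plus strand for CXCL8, chr4:74099146-74099445 on the minus strand for CXCL2, chr7:22726950-22727249 on the plus strand for IL6 and chr11:102317234-102317533 on the plus strand for BIRC3.

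CXCL8: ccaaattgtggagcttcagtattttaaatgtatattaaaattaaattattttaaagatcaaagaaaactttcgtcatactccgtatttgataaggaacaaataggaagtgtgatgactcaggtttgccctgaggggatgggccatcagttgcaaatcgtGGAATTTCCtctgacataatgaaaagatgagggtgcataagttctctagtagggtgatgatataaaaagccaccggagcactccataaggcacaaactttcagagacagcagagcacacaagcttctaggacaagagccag

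CXCL2: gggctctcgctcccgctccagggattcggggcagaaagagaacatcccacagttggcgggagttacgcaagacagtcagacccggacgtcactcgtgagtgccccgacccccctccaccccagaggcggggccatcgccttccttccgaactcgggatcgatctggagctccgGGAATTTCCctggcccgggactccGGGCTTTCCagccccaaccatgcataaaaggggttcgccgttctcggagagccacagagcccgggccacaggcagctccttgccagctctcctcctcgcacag

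IL6: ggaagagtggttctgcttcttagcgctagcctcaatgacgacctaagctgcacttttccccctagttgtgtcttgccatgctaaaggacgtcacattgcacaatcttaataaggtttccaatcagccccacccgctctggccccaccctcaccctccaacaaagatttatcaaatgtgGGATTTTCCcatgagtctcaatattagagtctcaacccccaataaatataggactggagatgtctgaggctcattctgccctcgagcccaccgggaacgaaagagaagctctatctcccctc

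BIRC3: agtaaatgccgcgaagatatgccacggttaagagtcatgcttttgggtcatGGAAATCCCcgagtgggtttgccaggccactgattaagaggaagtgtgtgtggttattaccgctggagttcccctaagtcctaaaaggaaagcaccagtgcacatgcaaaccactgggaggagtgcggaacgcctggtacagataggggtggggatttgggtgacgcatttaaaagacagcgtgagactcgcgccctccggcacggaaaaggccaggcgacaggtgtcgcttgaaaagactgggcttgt

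CXCL2 had 2 matches and CXCL8 and IL6 had 1 each, all on the gene's strand, and BIRC3 had 1 on the opposite strand. The motif was found in 1710 of 27305 RefSeq promoters (6.26%) and in 18 of the 32 members of the list that had a promoter in the table (56.2%). A match describes the letters and is not evidence of binding.

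The transgene transcripts separated the lines and followed the labels in every library. HORMAD1 (ENSG00000143452.16, a protein-coding gene on the minus strand of GRCh38 chromosome 1, 150698060 to 150720888) had 203, 332 and 335 CPM in HORMAD1 replicates 1 to 3, from 3008, 3444 and 3818 counts, and 0 counts in the 3 CT83 and 3 control libraries. CPM is a count scaled to the library's normalised total. CT83 (ENSG00000204019.5, a protein-coding gene on the minus strand of chromosome X, 116461682 to 116463003) had 400, 446 and 724 CPM in the CT83 line, from 4670, 5160 and 7568 counts, and 0 counts in the 3 HORMAD1 and 3 control libraries. HORMAD1 was the lowest in HORMAD1 replicate 1 and CT83 the highest in CT83 replicate 3. In the double line HORMAD1 stood at 283, 313 and 347 CPM and CT83 at 86.7, 101 and 118 CPM.

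Against a floor of 3 counts per library, HORMAD1 was at least 1011-fold higher in the HORMAD1 line and CT83 at least 1809-fold lower. The floor covers counting error only. The fitted log2 fold changes, HORMAD1 line minus CT83 line, were 14.72 (SE 0.57, adjusted p = 0.00226 in edgeR's quasi-likelihood test) for HORMAD1 and -15.57 (SE 0.71, adjusted p = 0.0134) for CT83. They depend on the prior count, since 1 line had no counts. The exact two-sided permutation p over the 6 libraries was 0.1 for each gene, the smallest that 3 against 3 can give. Both genes were put into the cells, so these values check the labels.

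**Figure D1:**
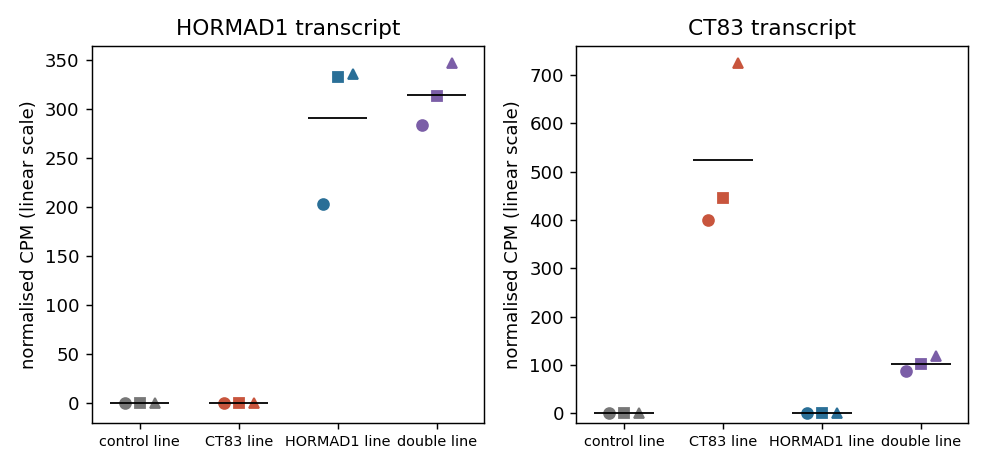
Normalised CPM (linear scale) of HORMAD1 and CT83 in each of the 12 libraries by line, with replicates 1, 2 and 3 as circle, square and triangle and the line mean as a bar. HORMAD1 was at 0 in the control and CT83 lines and CT83 at 0 in the control and HORMAD1 lines, and the double line held less CT83 transcript (86.7 to 118 CPM) than the CT83 line (400 to 724 CPM).

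The 6 libraries held 10399480 to 14159740 expected counts. HORMAD1 replicate 1 and CT83 replicate 3 stood apart from their fellow replicates. In them, levels relative to the mean of the 12 libraries went up with transcript length, by 0.0452 and 0.0478 log2 CPM per doubling of length, against -0.0176 to -0.003 in the other 4. Control replicate 2 had the next steepest rise, at 0.0258. The steepest fall was in double replicate 1, at -0.0432, and that library is not among those left out below as steep. Ribosomal protein genes, which have short transcripts, averaged -0.20 in HORMAD1 replicate 1 and -0.23 in CT83 replicate 3 relative to the 12-library mean on the log2 scale. Chi-square per degree of freedom between replicates was 2.542 for HORMAD1 replicates 2 and 3 and 3.213 for CT83 replicates 1 and 2, but 21.92 and 26.63 for HORMAD1 replicate 1 and 14.27 and 20.18 for CT83 replicate 3 against their fellows. No pair of replicates agreed within sampling noise. Results are therefore given with all 12 libraries and again without the 3 that rose most, called the steep libraries below. These are HORMAD1 replicate 1, CT83 replicate 3 and control replicate 2. Since HORMAD1 replicate 1 and CT83 replicate 3 also differ most from their fellows, p-values without them take in less spread.

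The cells of both lines expressed the epithelial markers. The summed level of EPCAM, CDH1, KRT5, KRT14, KRT8, KRT18 and TP63 was 6271 to 7933 CPM in the HORMAD1 line and 6690 to 7286 CPM in the CT83 line. Endothelial markers (4 genes) summed to at most 1.55 CPM. Among leukocyte markers, PTPRC and CD3E were at 0 in all 6 libraries, and CD14 stood at 4.39 to 7.78 CPM. CSF1R, a receptor of macrophages in a wider leukocyte list, had 139, 142 and 160 CPM in the HORMAD1 line and 156, 139 and 133 CPM in the CT83 line. The 6 fibroblast markers summed to 21.5 to 23.7 CPM in the HORMAD1 line and 19.4 to 20.6 CPM in the CT83 line without overlap. Most of that was FAP, at 20.4, 19.5 and 19.3 against 17.1, 17.4 and 17.6 CPM, while DCN and LUM, which define fibroblasts, did not exceed 0.343 CPM. In the wider fibroblast list 3 tested members lay above 0 and 4 below (median -0.057), and PDPN had 10.9, 12 and 11.8 CPM in the HORMAD1 line against 13.7, 15 and 15.2 CPM in the CT83 line (log2 fold change -0.34, SE 0.14).

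With all 12 libraries in the fit, no gene other than the transgenes passed the test between the 2 lines. Of 15616 genes tested, 2 were called (0.0128%), with HORMAD1 higher (1 gene, 0.0064%) and CT83 lower (1 gene, 0.0064%), at a Benjamini-Hochberg adjusted p under 0.05 in edgeR's quasi-likelihood test. At an unadjusted p under 0.05 there were 724 genes (4.64%), 411 higher in the HORMAD1 line (2.63%) and 313 lower (2%). All 3 HORMAD1 libraries lay above all 3 CT83 libraries for 656 genes (4.2%) and below them for 512 (3.28%), 1168 in either direction (7.48%). limma-voom also called 2 genes and DESeq2 called 9. Log2 fold changes had a median SE of 0.15 (quartiles 0.11 and 0.26).

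The genes nearest the threshold are given as levels, since none was called in edgeR's test (adjusted p from 0.302 to 0.955). They are the 8 protein-coding genes per direction with the smallest unadjusted p, no overlap between the lines and an average of 2 or more on the log2 CPM scale. Because they were ranked on this contrast, their lack of overlap is part of the choice. Among the 8 higher ones, UGCG, which makes glucosylceramide, had 116, 135 and 126 CPM in the HORMAD1 line and 87.6, 96.7 and 99.8 CPM in the CT83 line (log2 fold change 0.41, SE 0.09). B4GALT5, a galactosyltransferase that makes lactosylceramide, had 151, 165 and 149 CPM against 124, 115 and 119 CPM (log2 fold change 0.38, SE 0.07). ERRFI1 encodes a feedback inhibitor of the EGF receptor. It had 240, 215 and 198 CPM in the HORMAD1 line against 163, 148 and 167 CPM in the CT83 line (log2 fold change 0.45, SE 0.08). PDLIM5, a scaffold of the actin cytoskeleton, had 91.8, 95.8 and 95.1 CPM against 71.5, 70 and 72.9 CPM (log2 fold change 0.40, SE 0.08).

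The largest fold among these 16 genes was that of C15orf48, which encodes a small mitochondrial protein of cytochrome c oxidase. Its level was 8.63, 8.68 and 11 CPM in the HORMAD1 line and 4.46, 4.41 and 3.35 CPM in the CT83 line (log2 fold change 1.20, SE 0.24, adjusted p = 0.302 in edgeR's test). It overlaps the antisense genes ENSG00000259342 and SLC30A4-AS1, the latter on its own strand, so its count is uncertain. SDR16C5, a retinol dehydrogenase of epithelia, had 6, 7.52 and 6.32 CPM against 3.86, 3.63 and 2.96 CPM (log2 fold change 0.91, SE 0.19). NMU, a secreted neuropeptide, had 45.9, 54.7 and 59.5 CPM against 31.5, 34.7 and 41.5 CPM (log2 fold change 0.57, SE 0.12). PLK2, a stress-responsive polo-like kinase, had 208, 241 and 238 CPM against 165, 159 and 200 CPM (log2 fold change 0.39, SE 0.09). For 6 of the 8, all but NMU and PLK2, the HORMAD1 libraries lay above all 9 other libraries, and for PDLIM5 and SDR16C5 the CT83 libraries also lay below the other 9. The choice of genes without overlap between the lines favours this. The share of all genes placed so was not counted, so these counts only describe the genes. For C15orf48 the control line stood at 4.17, 7.87 and 5.81 CPM and the double line at 3.37, 2.72 and 2.11 CPM.

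Among the 8 genes lower in the HORMAD1 line, CA12 came nearest. It encodes a carbonic anhydrase of the cell surface and had 22, 22.5 and 19.1 CPM in the HORMAD1 line and 31.8, 32 and 31.2 CPM in the CT83 line (log2 fold change -0.58, SE 0.12, adjusted p = 0.302 in edgeR's test). NTNG1, a membrane-anchored netrin, had 4.85, 4.53 and 4.65 CPM against 8.23, 7.43 and 7.75 CPM (log2 fold change -0.73, SE 0.17). ARHGAP22, a GTPase-activating protein, had 9.1, 9.83 and 7.81 CPM against 11.1, 17 and 13.1 CPM (log2 fold change -0.62, SE 0.16). For these 3 genes the HORMAD1 libraries lay below all 9 others, and here too the share of all genes was not counted. For SEMA3B, a secreted semaphorin, it was the CT83 line that lay beyond the rest: 21.9, 24.3 and 22.2 CPM, against 17.9, 12.6 and 11.8 CPM in the HORMAD1 line and at most 18 CPM elsewhere. The same held for SLC6A6, the taurine transporter, with 83.3, 82 and 89.2 CPM in the CT83 line and 71.9, 70.4 and 64.1 CPM in the HORMAD1 line. SLC6A6 overlaps GRIP2 on the other strand, so its count is uncertain. The remaining 3 were NT5C, TRIM65 and ARID5B, with log2 fold changes of -0.43, -0.46 and -0.59, of which NT5C overlaps ARMC7.

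**Figure D2:**
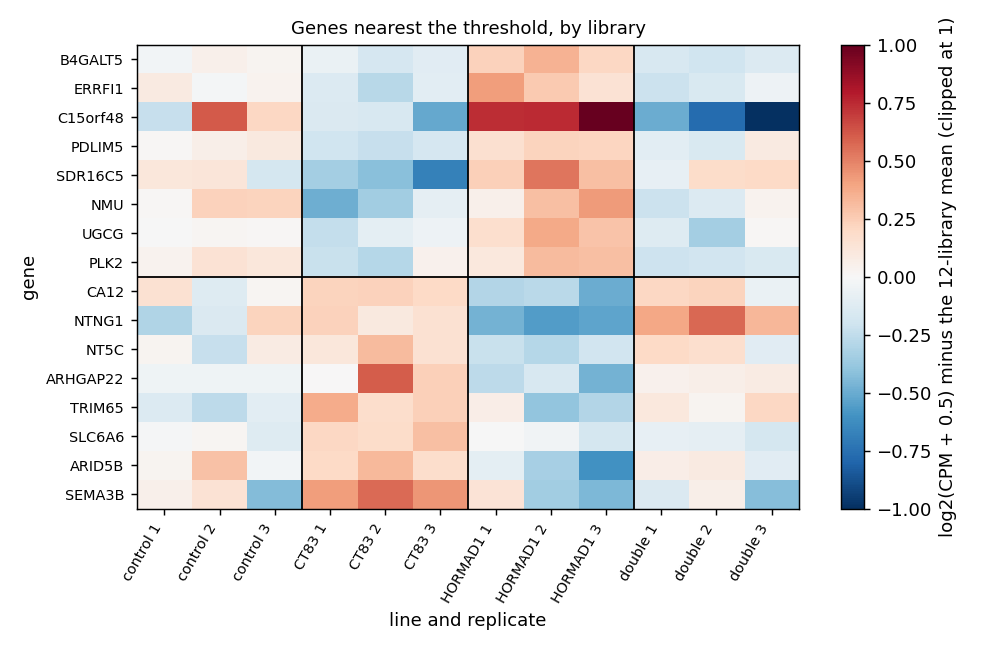
Heat map of the 16 genes nearest the threshold (rows, 8 higher above the line and 8 lower below it) in the 12 libraries (columns, by line and replicate), as log2(CPM + 0.5) minus the 12-library mean, with colours limited to 1 in either direction. The 3 HORMAD1 columns are red in the upper rows and blue in most of the lower ones, while for SLC6A6 and SEMA3B it is the CT83 columns that stand out.

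Other tools called a few of these genes. DESeq2 called 7 besides the transgenes, among them B4GALT5 and ERRFI1 (adjusted p = 0.0111 each in DESeq2), C15orf48 (0.0288), CA12 (0.0305) and PDLIM5 (0.0367). The remaining calls were ENSG00000259342, which overlaps C15orf48, and ENSG00000288528. Without a filter on low counts, edgeR called 10 genes, all higher in the HORMAD1 line. They were HORMAD1, C15orf48, its overlapping partner ENSG00000259342, ENSG00000288528, ERRFI1, NMU, BIRC3, PTGS2, WNT10A and CES1, of which WNT10A and CES1 were named after their values were seen. ERRFI1, C15orf48 and the ENSG-numbered pair were thus called in both settings.

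For the gene groups, a list is described by how many of its tested members lay above or below a log2 fold change of 0, beside the same for all genes, of which 7670 lay above, 7946 below and the median was -0.0032. With all 12 libraries in edgeR's test, no list had a called member. DESeq2 called CA12 of the hypoxia list, and edgeR without the low-count filter called BIRC3 and PTGS2 of the NF-kB list. Many of the counts below changed when 1 library was left out, and those that changed most are given beside them. In bulk RNA, fewer cells of a type and less RNA per cell cannot be told apart.

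Most members of the NF-kB list were at higher levels in the HORMAD1 line, though none was called in edgeR's test with the low-count filter. Of its 39 members 36 were tested, 31 lay above 0 and 5 below, and the median log2 fold change was 0.18. At an unadjusted p under 0.05, 7 members were higher and 0 lower, against 2.63% and 2% of all genes. For 7 members all HORMAD1 libraries lay above all CT83 libraries and for 0 below, against 4.2% and 3.28% of all genes. By role, medians were larger for the secreted products than for the transcription factors. Cytokines and enzymes had 8 of 9 members above 0 (median 0.47), chemokines 7 of 8 (median 0.51), feedback and survival genes 12 of 14 (median 0.14) and the NF-kB subunits 4 of 5 (median 0.03). Across scalings, filters, tools and left-out libraries, the number above 0 was 25 to 32 and the median 0.16 to 0.24.

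PTGS2, the inducible cyclooxygenase of prostaglandin synthesis, had 14.6, 18.6 and 25.2 CPM in the HORMAD1 line and 9.6, 9.51 and 14.2 CPM in the CT83 line (log2 fold change 0.81, SE 0.21, adjusted p = 0.874 in edgeR's test). BIRC3, an inhibitor of apoptosis and a target of NF-kB, had 148, 152 and 134 CPM against 110, 111 and 90.5 CPM (log2 fold change 0.48, SE 0.12, adjusted p = 0.645). IL1A, an alarm cytokine, had 197, 194 and 172 CPM against 155, 154 and 127 CPM (log2 fold change 0.37, SE 0.10). These 3 genes did not overlap between the lines. IL32, a cytokine, had 22.1, 30.3 and 31.7 CPM against 18.7, 20.4 and 21.1 CPM (log2 fold change 0.48, SE 0.14). TNFAIP3, a deubiquitinase that shuts NF-kB signalling off, had 52.2, 50.1 and 54.1 CPM against 45.9, 38.4 and 43.2 CPM (log2 fold change 0.30, SE 0.12). These 2 did not overlap either. NFKBIA, the main IkB protein, had a log2 fold change of -0.11 (SE 0.15), and RELA, the transactivating subunit, of -0.04 (SE 0.13).

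The chemokines depended on the library. CXCL8, a neutrophil attractant, had 28.6 CPM in HORMAD1 replicate 1 but 98.1 and 104 CPM in replicates 2 and 3. The CT83 line had 42.6, 41.3 and 39.3 CPM and the control line 50.4, 51.6 and 55.6 CPM. HORMAD1 replicate 1 was thus the lowest of the 12 libraries and replicates 2 and 3 the highest. CXCL1, of the same family, had 78.1, 228 and 288 CPM in the HORMAD1 line and 130, 125 and 151 CPM in the CT83 line. CXCL2 had 10.7, 19.5 and 21.8 against 11.5, 10.9 and 15.1 CPM. IL6, a cytokine of the acute phase, had 3.78, 5.59 and 9.21 against 4.37, 3.03 and 5.93 CPM. In all 4 genes HORMAD1 replicate 1 had the lowest level of its line. It lay below every CT83 library for CXCL8, CXCL1 and CXCL2 and within their range for IL6. LIF, a cytokine of the same receptor family, went the other way, with 41.7 CPM in HORMAD1 replicate 1 and 21.6 and 20.3 CPM in the others.

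With the 3 steep libraries left out, 7 of the 36 members (19.4%) were called higher in the HORMAD1 line and 0 lower, against 3.19% and 2.73% of all genes. They were PTGS2, CXCL8, CXCL2, IL6, TRAF1, BIRC3 and IL32. In that fit 25 of 36 members lay above 0, with a median of 0.19. CXCL8 had a log2 fold change of 1.27 (SE 0.09, adjusted p = 1.68e-08 in edgeR's test) and PTGS2 of 1.20 (SE 0.18, adjusted p = 4.62e-04). In the steep pair itself, HORMAD1 replicate 1 minus CT83 replicate 3, the difference in log2 CPM was -0.46 for CXCL8, -0.49 for CXCL2, -0.63 for IL6 and -0.94 for TRAF1. It was 0.04 for PTGS2, 0.07 for IL32 and 0.71 for BIRC3. Over the list, 22 of 36 members lay above 0 in the steep pair, with a median of 0.07. The part of transcript length and of these libraries in the result was not tested beyond these values.

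**Figure D3:**
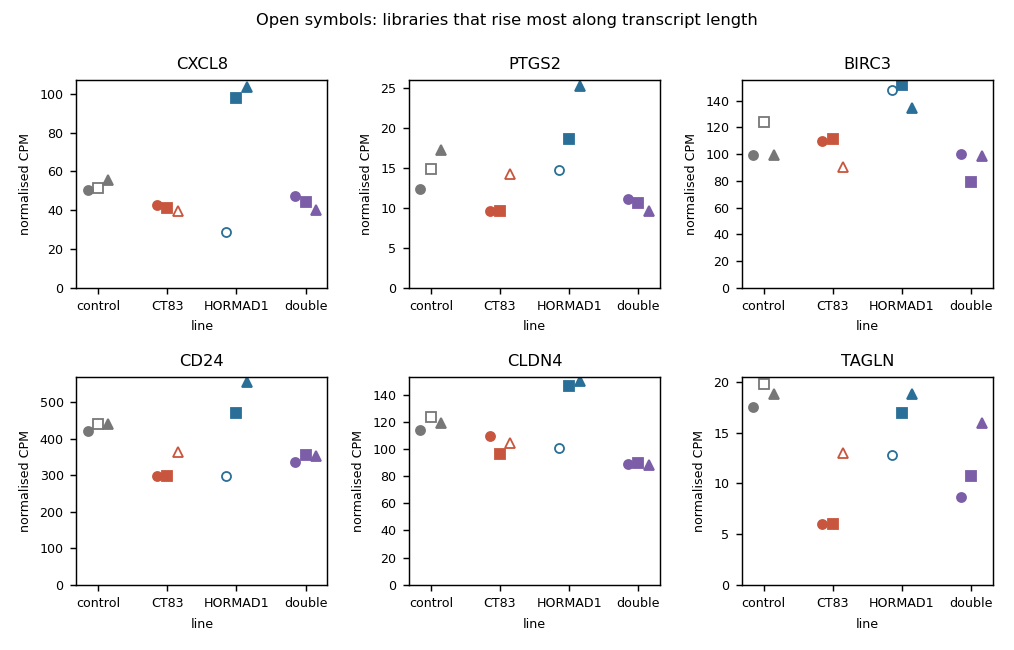
Normalised CPM (linear scale from 0) of CXCL8, PTGS2, BIRC3, CD24, CLDN4 and TAGLN in the 12 libraries by line, with replicates 1, 2 and 3 as circle, square and triangle and the 3 steep libraries as open symbols. HORMAD1 replicate 1 lies far below its fellows for CXCL8 and CD24 (28.6 and 298 CPM) but among them for BIRC3 (148 CPM).

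Luminal and junction genes lay mostly above 0, and the direction of the basal list depended on the libraries. Of 12 luminal members tested, 9 lay above 0 and 3 below (median 0.12). At an unadjusted p under 0.05, 3 were higher and 0 lower, against 2.63% and 2% of all genes. KRT8 had 1949, 2659 and 2503 CPM in the HORMAD1 line and 1916, 1866 and 1981 CPM in the CT83 line (log2 fold change 0.30, SE 0.11), and its partner KRT18 had a log2 fold change of 0.22 (SE 0.10). CD24, a surface glycoprotein of luminal cells, had 298, 471 and 557 against 297, 299 and 364 CPM (log2 fold change 0.47, SE 0.17). Each overlapped between the lines through HORMAD1 replicate 1. Of the luminal members, 0 had all HORMAD1 libraries above the CT83 line, against 4.2% of all genes. For 1 member, a transcription factor, all lay below it, against 3.28% of all genes. Of 25 basal members, 9 lay above 0 and 16 below (median -0.06), but 16 lay above 0 without CT83 replicate 3 (median 0.058) or without the 3 steep libraries (median 0.13). EPCAM, the pan-epithelial adhesion molecule, had a log2 fold change of 0.04 (SE 0.11) and GATA3, a luminal transcription factor, of 0.16 (SE 0.19). KRT5 and TP63 each had a log2 fold change of -0.05 (SE 0.09). KRT14, with 264, 442 and 491 CPM against 492, 566 and 497 CPM, had one of -0.38 (SE 0.23). The contractile protein TAGLN, at 12.8, 17 and 18.9 CPM against 6, 5.97 and 13 CPM, was the basal member with the largest log2 fold change (0.97, SE 0.30). Control means were 2409 CPM for KRT8, 1172 for KRT18, 434 for CD24 and 18.7 for TAGLN. Those of the HORMAD1 line were 2370, 1127, 442 and 16.2 CPM and of the CT83 line 1921, 971, 320 and 8.32 CPM. For these genes the control line thus stood nearer the HORMAD1 line. For KRT14 and KRT5 it was nearer the CT83 line, at 493 against 399 and 518 CPM and at 3077 against 2729 and 2825 CPM.

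Of 29 genes of epithelial junctions, 20 lay above 0 and 9 below (median 0.07). At an unadjusted p under 0.05, 6 were higher and 0 lower, against 2.63% and 2% of all genes. For 5 the lines did not overlap, all with the HORMAD1 line above, against 4.2% of all genes above and 3.28% below. The tight junction members were all above 0, 8 of 8, with a median of 0.36. The other roles were divided. Desmosome genes lay 5 above and 4 below (median 0.01), regulators 4 and 3 (0.03) and cadherins and catenins 3 and 2 (0.06). CLDN1, a claudin of the tight junction seal, had 42.3, 53.7 and 57.3 CPM in the HORMAD1 line and 35.2, 41.2 and 42.2 CPM in the CT83 line (log2 fold change 0.37, SE 0.12). MARVELD2, which seals tricellular contacts, had 17.1, 23.5 and 20.8 against 15.9, 14.2 and 14.9 CPM (log2 fold change 0.44, SE 0.14). Both kept the lines apart, whereas OCLN, at 25.4, 32 and 39.2 against 22.1, 24.1 and 26 CPM, and CLDN4, at 101, 146 and 150 against 110, 96.7 and 104 CPM, overlapped. PKP2, a desmosome plaque protein, had a log2 fold change of 0.28 (SE 0.09), OVOL1, a regulator of epithelial identity, of 0.57 (SE 0.17) and CDH1, the epithelial cadherin, of 0.20 (SE 0.10). Control means lay between those of the lines for MARVELD2 (17.6 CPM), PKP2 (133), OVOL1 (20.8) and CDH1 (377). The HORMAD1 line averaged 20.5, 145, 27.6 and 385 CPM and the CT83 line 15, 119, 18.7 and 336 CPM. Mesenchymal genes lay 7 above and 13 below 0 of 20 tested (median -0.13). This was 13 above without CT83 replicate 3 (median 0.16) or HORMAD1 replicate 2 (median 0.057), 11 above without HORMAD1 replicate 3 (median 0.013) and 3 above without HORMAD1 replicate 1 (median -0.50). CDH2, the cadherin of mesenchymal cells, had 22.9, 25 and 28.9 against 14.2, 13.3 and 27.4 CPM, VIM had a log2 fold change of -0.15 (SE 0.14) and the transcription factor TWIST1 of -0.40 (SE 0.20).

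Without the 3 steep libraries, 8 of 29 junction genes (27.6%) were called higher and 0 lower, against 3.19% and 2.73% of all genes. These were GRHL3, CLDN1, MARVELD2, OCLN, CLDN4, OVOL1, PKP2 and CDH1, and 24 of 29 lay above 0 in that fit (median 0.17). Of 13 luminal genes CD24, KRT8 and KRT18 were called higher, and the basal genes called higher included TAGLN and KRT17. CD24 had a log2 fold change of 0.79 (SE 0.07, adjusted p = 7.54e-07 in edgeR's test), CLDN4 of 0.52 (SE 0.08, adjusted p = 3.92e-04) and TAGLN of 1.58 (SE 0.22, adjusted p = 4.62e-04). In the steep pair, however, 9 of 29 junction genes, 4 of 13 luminal genes and 5 of 25 basal genes lay above 0, with median differences of -0.13, -0.04 and -0.35. The difference was -0.29 for CD24, -0.05 for CLDN4 and -0.02 for TAGLN.

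Among YAP and TAZ targets, genes switched on when cells spread and the Hippo pathway is off, 15 of 19 lay above 0 (median 0.13), from 11 without CT83 replicate 2 (median 0.075) to 19 without CT83 replicate 3 (median 0.26). CCN1, a matrix protein and classical target, had 309, 217 and 225 CPM in the HORMAD1 line and 141, 150 and 206 CPM in the CT83 line, without overlap (log2 fold change 0.60, SE 0.18). F3, the tissue factor that starts clotting, had 550, 521 and 546 against 314, 297 and 595 CPM, so that CT83 replicate 3 lay above the HORMAD1 line. Without the 3 steep libraries 5 of 19 (26.3%) were called higher, F3, NT5E, TEAD1, FJX1 and AJUBA, and 0 lower, against 3.19% and 2.73% of all genes. In the steep pair 7 of 19 lay above 0.

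Of 16 Notch genes 12 lay below 0, with a median of -0.20. Above 0 were 4 genes, but 8 without CT83 replicate 3 (median -0.029) and 7 without HORMAD1 replicate 2 (median -0.084) or 3 (median -0.050). The ligand JAG1 had 94.9, 93.3 and 98.6 CPM in the HORMAD1 line and 109, 101 and 119 CPM in the CT83 line (log2 fold change -0.20, SE 0.09). NRARP, a target and feedback inhibitor of the pathway, had 23, 27.8 and 30.4 against 39.6, 35.4 and 38.1 CPM (log2 fold change -0.48, SE 0.19). Both kept the lines apart with HORMAD1 below. On the other side stood RBPJ, the DNA-binding partner of Notch, with 64.9, 68.9 and 68.9 against 54.7, 53.5 and 54.1 CPM (log2 fold change 0.32, SE 0.10). DTX3L, which ubiquitinates histones, had 48.8, 49.6 and 48.4 against 38.5, 39.9 and 38.2 CPM (log2 fold change 0.33, SE 0.09). The receptor NOTCH3 varied within the HORMAD1 line, with 35.5 CPM in replicate 1 and 10.2 and 6.93 CPM in the others, against 20.8, 30.8 and 28.1 CPM in the CT83 line. Without the steep libraries NOTCH3 (log2 fold change -1.59, SE 0.27, adjusted p = 0.00821 in edgeR's test) and NOTCH2 were called lower and RBPJ higher. In the steep pair NOTCH3 differed by 0.33 in the opposite direction.

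Genes of the cornified envelope, the crosslinked shell of squamous cells, lay below 0 in 7 of 10 (median -0.53), and the whole squamous list in 15 of 25 (median -0.08), though in that list 14 of 25 lay above 0 without CT83 replicate 2. The crosslinked precursor SPRR1B had 9.44, 16.5 and 19.1 CPM in the HORMAD1 line and 21, 20.7 and 27.8 CPM in the CT83 line (log2 fold change -0.63, SE 0.22). IVL, another precursor, had 4.05, 2.02 and 1.84 against 3.17, 6.31 and 12.2 CPM (log2 fold change -1.41, SE 0.49), so that the lines overlapped at low levels. IVL was called lower without the steep libraries (log2 fold change -1.29, SE 0.36, adjusted p = 0.0389 in edgeR's test), and the steep pair had the same sign (-1.56). FLG and KRT15 were also called lower there, and SPRR2D and KRT80 higher.

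Genes close to the known functions of the transgenes were not called in edgeR's test, as for all but 0.0128% of genes. Of 32 genes of the meiotic axis and recombination 12 were tested and 7 were at 0 in all 6 libraries, among them HORMAD2, the paralog of HORMAD1. Of those tested 7 lay above 0 and 5 below (median 0.02), and 5 above without HORMAD1 replicate 3. TRIP13 had 101, 123 and 128 CPM in the HORMAD1 line and 117, 110 and 106 CPM in the CT83 line (log2 fold change 0.08, SE 0.09). MAD2L1, a spindle checkpoint protein that TRIP13 also remodels, had a log2 fold change of 0.03 (SE 0.14). Of 38 other cancer/testis genes 25 were at 0 in all 6 libraries, including 23 of the 24 on the X chromosome. The 10 that were tested are autosomal, with 7 above 0 and 3 below (median 0.11).

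Double-strand break repair genes divided evenly, with 20 above 0 and 20 below of 40 tested (median -0.0021). BRCA1, which acts in homologous recombination, had 70.3, 47.8 and 39 CPM in the HORMAD1 line and 47.7, 50.8 and 64.6 CPM in the CT83 line (log2 fold change -0.05, SE 0.19). Fanconi genes lay 8 above and 8 below (5 above without CT83 replicate 2), DNA replication genes 18 above and 12 below, and p53 targets 10 above and 13 below, among them CDKN1A, the arrest gene, at 0.11 (SE 0.09) and MDM2, the p53 ubiquitin ligase, at 0.23 (SE 0.11). Mitosis genes lay 21 above and 4 below, but by small amounts (median 0.08). Relative to the 12-library mean, the list averaged 0.28 in HORMAD1 replicate 1 but -0.10 and -0.09 in replicates 2 and 3. The CT83 libraries stood at -0.0016, 0.07 and 0.10. Without the 3 steep libraries 16 of 25 lay above 0 (median 0.03), and in the steep pair 23 of 25 did. ANLN, a scaffold of the cytokinetic ring, had 402, 415 and 401 against 354, 336 and 353 CPM (log2 fold change 0.22, SE 0.07). The proliferation marker MKI67 spanned a wide range within each line, 202, 13 and 17.5 CPM in the HORMAD1 line and 31.8, 104 and 242 CPM in the CT83 line, so that its log2 fold change of -0.68 had an SE of 1.21. Its highest levels were in HORMAD1 replicate 1 and CT83 replicate 3. Without the 3 steep libraries 0 of 16 Fanconi and 0 of 12 meiotic genes were called, against 5.92% of all genes. In lists this short, 0 calls is close to that share. MDC1 was the 1 repair gene called of 40 (2.5%), lower in the HORMAD1 line. Also called were POLD1 of the replication list, lower (3.33% of members), and ANLN, higher, and CENPE, lower, of the mitosis list (8%). Of the p53 targets AEN was called higher and FDXR lower (8.7%).

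Most of the remaining lists had medians closer to 0. Hypoxia and glycolysis genes lay 18 above and 9 below (median 0.11), TGF-beta genes 13 and 8 (0.07), interferon-stimulated genes 13 and 9 (0.06), MHC class I genes 11 and 4 (0.05), and genes of the EGF receptor family and MAPK feedback 12 and 9 (0.04). Immediate early genes lay 10 above and 6 below (0.04), ribosomal protein genes 41 and 19 (0.02), antioxidant targets of NRF2 9 and 9 (-0.01), genes of cholesterol and fatty acid synthesis 11 and 15 (-0.01), oxidative phosphorylation genes 15 and 22 (-0.04), histone genes 5 and 7 (-0.05) and genes of the unfolded protein response 6 and 17 (-0.05). Several of these counts turned over with 1 library left out. Ribosomal protein genes above 0 numbered 2 of 60 without CT83 replicate 3, 7 without HORMAD1 replicate 3 and 30 without HORMAD1 replicate 2. Immediate early genes above 0 were 3 of 16 without HORMAD1 replicate 1. Oxidative phosphorylation genes above 0 ranged from 4 of 37 without CT83 replicate 3 to 25 without HORMAD1 replicate 1, and genes of the unfolded protein response reached 12 of 23 without CT83 replicate 1 and 15 without HORMAD1 replicate 1. Genes of the EGF receptor list above 0 were 9 of 21 without CT83 replicate 2, 10 without CT83 replicate 1 and 18 without CT83 replicate 3. For cholesterol and fatty acid genes it was 14 of 26 without CT83 replicate 3 or without HORMAD1 replicate 1 or 3. HLA-B, a presenting molecule of MHC class I, had 80.1, 69.5 and 64.7 CPM in the HORMAD1 line and 62.4, 63.7 and 55.5 CPM in the CT83 line (log2 fold change 0.24, SE 0.10), without overlap. MX1, an interferon-induced GTPase, kept the lines apart, with 4.52, 3.95 and 3.51 CPM in the HORMAD1 line and 2.74, 2.16 and 2.1 CPM in the CT83 line (log2 fold change 0.77, SE 0.25). HLA-B was the 1 member of 15 tested in its list with all HORMAD1 libraries above, and MX1 the 1 of 22. In both lists 0 members had all below. Among all genes these shares were 4.2% and 3.28%. EGR1, a transcription factor induced by serum, had 132 CPM in HORMAD1 replicate 1 and 20.8 and 17.5 CPM in the others, against 62.7, 72.3 and 33.7 CPM in the CT83 line. Over all libraries its log2 fold change was 0.02, whereas without the steep libraries it was -1.82 (SE 0.32, adjusted p = 0.0287 in edgeR's test), and in the steep pair 1.96.

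Within the EGF receptor family and its feedback, 3 members were higher and 1 lower at an unadjusted p under 0.05, against 2.63% and 2% of all genes. For 2 members all HORMAD1 libraries lay above all CT83 libraries and for 1 below, against 4.2% and 3.28% of all genes. The ligand TGFA had 91.3, 131 and 133 CPM in the HORMAD1 line and 97.3, 83.4 and 106 CPM in the CT83 line (log2 fold change 0.31, SE 0.13). The phosphatases DUSP4 and DUSP1, which switch MAP kinases off, kept the lines apart, with 181, 184 and 196 against 169, 146 and 179 CPM for DUSP4 and 25.3, 27 and 27.5 against 23.2, 22.8 and 19.1 CPM for DUSP1. The ligand EREG was the lower one at that p but overlapped between the lines, with 27, 30.6 and 27.4 against 39, 38.6 and 27 CPM (log2 fold change -0.30, SE 0.14). Without the steep libraries DUSP10, TGFA, DUSP4 and NRG1 were called higher and EREG lower, 5 of 21 (23.8%) against 5.92% of all genes, and 9 of 21 members lay above 0 in the steep pair. Among hypoxia genes NDRG1, a differentiation gene induced by low oxygen, had 128, 127 and 129 CPM in the HORMAD1 line against 116, 102 and 116 CPM in the CT83 line (log2 fold change 0.21, SE 0.09), and CA12 of the same list is described above. The NRF2 target AKR1C1, an aldo-keto reductase, had 9.84, 6.75 and 6.76 against 12.2, 13.1 and 8.13 CPM (log2 fold change -0.51, SE 0.22) and shares near-identical copies, so its count is uncertain. Without the steep libraries AKR1C1 was called lower (log2 fold change -0.90, SE 0.19, adjusted p = 0.00724 in edgeR's test), while the steep pair differed by 0.27.

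**Figure D4:**
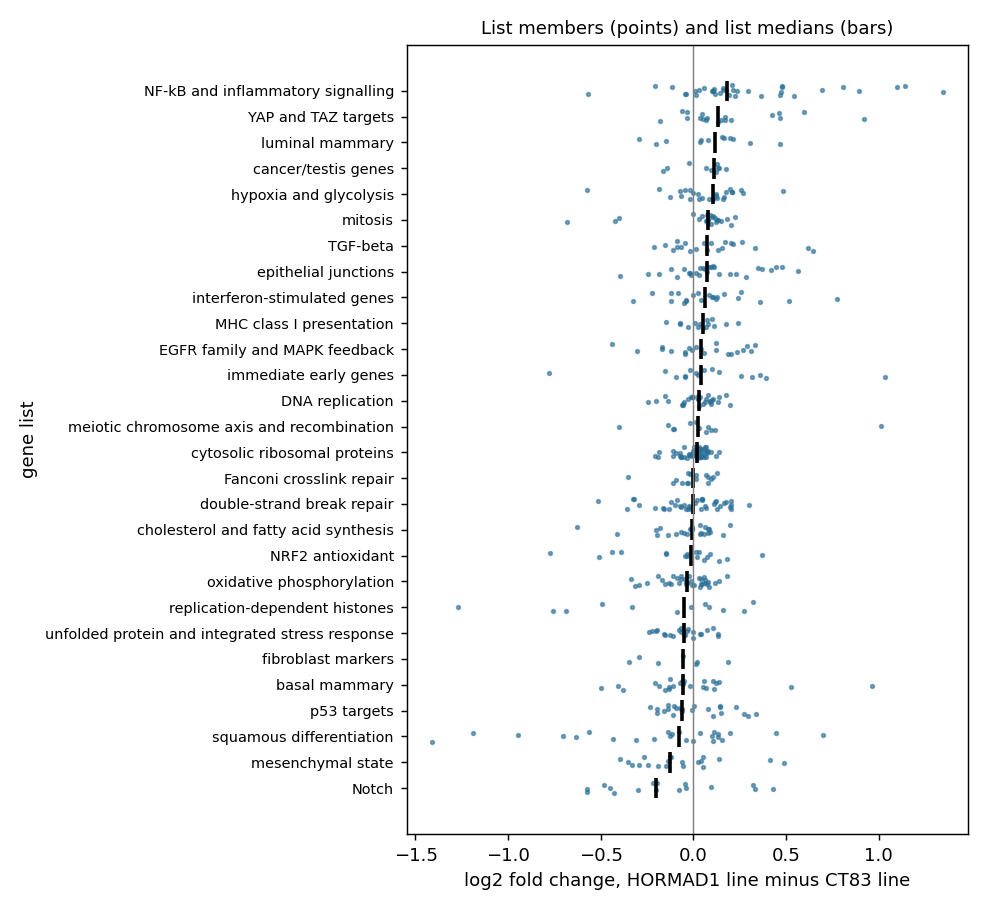
Log2 fold change, HORMAD1 line minus CT83 line, over all 12 libraries, for each tested member (points) of the 28 gene lists with at least 5 members tested, sorted by the list median (bars). Medians run from -0.20 for Notch genes to 0.18 for the NF-kB list, and no point was called in edgeR's test with the low-count filter.

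Without the 3 steep libraries (HORMAD1 replicate 1, CT83 replicate 3, control replicate 2), 2 libraries per line compared remained and 9 in the fit. In it 927 of 15667 genes were called in edgeR's quasi-likelihood test (5.92%), 499 higher in the HORMAD1 line (3.19%) and 428 lower (2.73%). The transgenes were among them, which leaves 925 genes, 498 higher and 427 lower. The median SE was 0.15, as over all libraries. In the 2 lines compared, however, the libraries left out were also those farthest from their fellow replicates. The p-values of this fit therefore take in less spread between libraries. For CXCL8 the SE was 0.38 over all libraries and 0.09 in this fit. Of the 927, 701 were among the 768 called by DESeq2 on the same libraries (75.6% of the first set and 91.3% of the second). Leaving out HORMAD1 replicate 1 alone gave 115 calls, and leaving out CT83 replicate 3 alone gave 3.

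The pair left out did not share most of these differences. HORMAD1 replicate 1 minus CT83 replicate 3 had the same sign for 223 of the 925 genes (24.1%), against 42.8% of the 14740 genes not called. Of the genes called higher 100 had the same sign and of those called lower 123. Over all 6 libraries, the lines did not overlap for 106 of the 925 (11.5%), with 74 HORMAD1 above and 32 below, against 7.27% of the genes not called. The 925 were called on libraries that are also among these 6. Their share is therefore partly set by the choice of genes, and no conclusion is drawn from it. Among the largest of these 106 genes, taken by log2 fold change among protein-coding genes averaging 2 or more on the log2 CPM scale and chosen after their values were seen, were ADAMTS9, CYP1A1, PTGS2, C15orf48, SPOCD1, SDR16C5, GPRC5A and VGLL3 above, and SEMA3B, PGAP4, NTNG1, ARID5B, CNTN1, ARHGAP22 and AKNAD1 below. C15orf48 had a log2 fold change of 1.15 (SE 0.24, adjusted p = 0.00536) in the 9 libraries and a difference of 1.32 in the steep pair. For SDR16C5 these were 0.88 (SE 0.24, adjusted p = 0.0264) and 0.98, for CA12 -0.62 (SE 0.13, adjusted p = 0.00635) and -0.50, and for NTNG1 -0.77 (SE 0.23, adjusted p = 0.0447) and -0.66. By contrast ADAMTS9, a secreted metalloprotease, had 1.67 (SE 0.30, adjusted p = 0.00435) and 0.29, and CYP1A1, a target of the aryl hydrocarbon receptor, 1.44 (SE 0.28, adjusted p = 0.00678) and 0.20. SERPINB2, an inhibitor of plasminogen activators, had 1.74 (SE 0.24, adjusted p = 0.00529) and -1.20, the opposite sign. Length trend, replicate and line cannot be told apart within the 2 libraries left out of these lines.

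**Figure D5:**
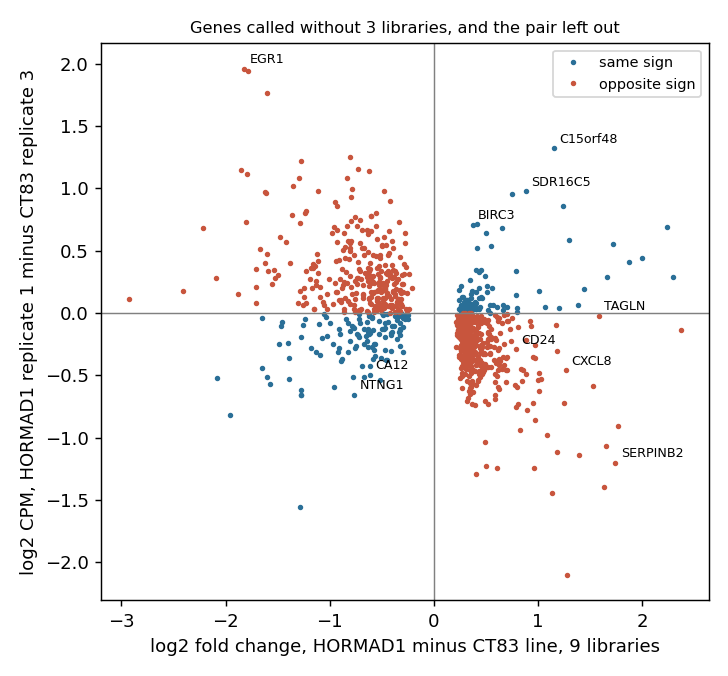
Each point is 1 of the 925 genes called without the 3 steep libraries, with its log2 fold change in the 9 libraries on the x axis and the log2 CPM difference between HORMAD1 replicate 1 and CT83 replicate 3, both left out of that fit, on the y axis. Points of the same sign (223, blue) include C15orf48, SDR16C5 and CA12, and those of opposite sign (red) include CXCL8, CD24 and EGR1.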

How the data were processed

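RNA of 12 libraries from 4 HMLE-derived lines was analysed as the labels group them. Library preparation used a NEBNext Ultra kit after addition of ERCC RNA, per the labels' protocols. The submitters' processing notes name STAR 2.7.5c, Trimmomatic 0.39, SAMtools and Picard, and the builds hg38 and hg19 without roles. The sources used here give no counting tool, annotation release or use of strand. The authors' deposited values are expected counts (estimated counts that need not be whole) for 61533 gene entries, and rounding them changed 6.755% of values by at most 0.5. GRCh38 coordinates and lengths come from GENCODE 29, which holds 58356 of the entries. Promoters come from RefSeq.

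In R 4.3.3, edgeR 4.0.16 fitted a robust quasi-likelihood model to all 12 libraries, 1 mean per line with 8 residual degrees of freedom, after filterByExpr at a minimum count of 10 and TMM scaling. The contrast was HORMAD1 line minus CT83 line, with calls at an adjusted p (Benjamini-Hochberg) under 0.05. Log2 CPM used a prior count of 2. The fit was tested on simulated data. Alternatives were other scalings and filters, DESeq2 1.42.0, limma-voom (limma 3.58.1), only the 6 libraries, a replicate block, a length and GC correction, a stricter threshold, and left-out libraries.

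Genes named were the transgenes, all called genes, the 8 uncalled protein-coding genes per direction with the smallest p, an average log2 CPM of 2 or more and no overlap, up to 3 members per list with the smallest p, and 22 fixed genes, with others named after their values were seen. The comparison, the 30 gene lists and the rule were chosen with earlier results of these data known. Lists were described by counts and medians, with no set test. The library totals of 9898845 to 14159740 and the SE of each fold change give the precision. Values of some single genes are left out here.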

Additional observations from a re-analysis of the deposited data

How the results depend on the processing

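With all 12 libraries in the fit 2 genes were called, 1 higher and 1 lower in the HORMAD1 line. This held with DESeq2 size factors, upper-quartile scaling, library size alone, a filter of 1 CPM in 3 libraries, limma-voom and the length and GC correction. It was 10 genes without a low-count filter (10 higher, 0 lower), 9 with DESeq2 (7 higher, 2 lower), 1 with only the 6 libraries (0 lower) and 1 at an adjusted p under 0.01 (0 lower). Leaving out 1 library gave 1 to 115 calls, 1 to 61 higher and 0 to 54 lower, the most without HORMAD1 replicate 1. Without the 3 steep libraries it was 927 (499 higher, 428 lower). Settings added after the data were seen gave, on the same 9 libraries, 768 with DESeq2 (420 higher, 348 lower), 794 with limma-voom (419 higher, 375 lower) and 1157 with the length and GC correction (735 higher, 422 lower). They gave 540 with only CT83 replicate 3 and HORMAD1 replicate 1 left out (331 higher, 209 lower) and 2305 with only the other 4 libraries in the fit (1158 higher, 1147 lower). The cause was not tested.

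With a replicate block 2 genes were called, and 2 with the length and GC correction as well. Deviations of same-numbered libraries from their line's mean correlated at -0.5197, -0.0472 and -0.3441, and no library correlated best with its own number. Deviations within a line depend on each other, so these values do not settle whether replicate numbers pair the libraries.

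CT83 itself was no longer called without a low-count filter (log2 fold change -15.57, edgeR adjusted p = 0.0565), with only the 6 libraries (-15.58, 0.0754) and without CT83 replicate 2 (0.112) or double replicate 1 (0.0989), 2 (0.158) or 3 (0.114). Leaving out 1 library put its log2 fold change at -15.74 to -15.28. The HORMAD1 call held in each setting planned; it was not recorded for the settings added later.

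These genes changed sign, with log2 fold changes over all libraries from -0.19 to 0.14 except MKI67 (-0.68). Without the 3 steep libraries the log2 fold change was 0.018 for THY1, -0.036 for IER2, 0.098 for KRT5, 0.068 for CD44 and 0.0625 for VIM. With the length and GC correction it was 0.0113 for NDUFV1 and -0.0088 for MAD2L1, and with the replicate block and that correction 0.0134 and -0.0032. Leaving out 1 library gave ranges of -0.0175 to 0.226 for IER2, -0.0223 to 0.106 for CSF1R, -0.119 to 0.0331 for KRT5, -0.119 to 0.0012 for CD44, -0.0296 to 0.149 for EPCAM, -0.277 to 0.0813 for VIM, -0.0927 to 0.165 for MAD2L1, -0.32 to 0.12 for BRCA1 and -3.04 to 0.21 for MKI67. Of 28 list medians, 11 moved by more than the spread in at least 1 setting.

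Each line had 3 libraries and each construct 1 line, and 2 of the 6 libraries had a trend along transcript length. Low genes such as IVL and FLG rest on few counts.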
